A study of Mus musculus with 2 samples.

Results

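A set of 9 genes of the TGF-beta pathway was followed: the ligand genes Tgfb1, Tgfb2 and Tgfb3, the latent TGF-beta binding protein family gene Ltbp2, the receptor gene Tgfbr1, the feedback inhibitor genes Smad7 and Skil, and the matrix target genes Tgfbi and Postn. They were chosen by symbol as genes of this pathway or known to respond to it, and all 9 were found among the 26100 genes that both libraries list. RNA of single cells from 2 mouse cultures was counted by the 10x Genomics 3′ droplet method, in which a unique molecular identifier (UMI) marks each captured molecule. One culture, MEF, consisted of embryonic fibroblasts kept in MEF media. The other, iMPC, consisted of induced myogenic progenitor cells, generated by MyoD, a master regulator of muscle, together with a treatment labelled F/R/C, and kept in F/R/C media. Series text describes a single stable iMPC clone. Both cultures carried the genotype Tg:Pax7-nGFP/C57BL6;DBA2, a Pax7 reporter. In the published method F/R/C stands for forskolin, RepSox and CHIR99021, and RepSox inhibits ALK5, the kinase that Tgfbr1 encodes. No iMPC culture without RepSox was among the samples, so RepSox, the other 2 compounds, MyoD and the change of cell type cannot be told apart. Each group held 1 library, so no test was made, and intervals are exact 95% intervals for counting error only.

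TGF-beta ligands are secreted in a latent complex that latent TGF-beta binding proteins tether to the matrix. Once released, a ligand brings together a type II receptor and the type I receptor ALK5, which phosphorylates Smad2 and Smad3. With Smad4 these enter the nucleus and switch on targets that include matrix genes and the pathway's own inhibitors, among them Smad7 and Skil. In muscle the pathway is known to hold back the differentiation of myoblasts, and in fibroblasts it drives matrix synthesis and the myofibroblast state.

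After removal of cells above 20% mitochondrial UMIs, 6043 MEF cells were kept with no minimum of UMIs, at a median of 18929 UMIs. The iMPC matrix also lists empty droplets, and a minimum of UMIs per barcode, with the lowest kept cell at 8040, left 9349 iMPC cells with a median of 20846. Within iMPC, 4 sets were cut by UMIs of a single cell. Pax7-positive cells (at least 1 Pax7 UMI, 0 Myog UMIs) numbered 2180, Myog-high cells (at least 5 Myog, at most 1 Ckm) 1724, Ckm-high cells (at least 5 Ckm) 1037 and Dcn-high cells (at least 5 Dcn) 553, while 4001 were in no set. Their median depths were 18729.5, 23858, 42148 and 18064 UMIs. Pax7 marks muscle stem cells, Myog committed myoblasts, Ckm (muscle creatine kinase) differentiated myocytes and Dcn (decorin) connective tissue cells. Levels are given in CPM, the usual unit scaled for depth, from the UMIs of a gene summed over a set and divided by all UMIs of that set. A 3′ count takes 1 UMI per captured molecule and needs no scaling by gene length. The list of 12 fibroblast markers includes Dcn itself, at 1162 CPM in Dcn-high cells, which were picked by it, and 268 CPM in MEF. With Dcn counted, the 12 fibroblast markers summed to 7437 CPM in MEF and 5934 CPM in Dcn-high cells, against 1947, 503 and 270.1 CPM in the Pax7-positive, Myog-high and Ckm-high sets. Myocyte markers ran the other way, from 96.3 CPM in MEF to 61003 CPM in Ckm-high cells. Dcn-high cells held 5549 CPM of them, and 18 of these cells were also Ckm-high, 18 also Myog-high and 110 also Pax7-positive, so this set is not pure. The epithelial, endothelial, immune and glial lists stayed at or under 14.6 CPM in every set. Smooth muscle and myofibroblast markers summed to 10228 CPM in MEF and to between 1059 and 3331 CPM in the iMPC sets. The highest sum, in Ckm-high cells, came mostly from 1 gene at 2537 CPM. The median of these markers was 245 CPM in MEF and between 22.6 CPM (Myog-high) and 95.7 CPM (Dcn-high) in the iMPC sets. Of the fibroblast list, 12 of 12 genes reached 10 CPM in MEF and 11, Dcn included, in Dcn-high cells. In MEF the muscle markers Myf5 and Ckm were at 0, but 3 of 8 satellite cell (muscle stem cell) markers reached 10 CPM, as did 1 of 8 myocyte markers. The satellite cell list summed to 266 CPM in MEF and to 647, 283, 264 and 372 CPM in the Pax7-positive, Myog-high, Ckm-high and Dcn-high sets. The part of these cell mixtures in the results that follow was not tested. Kept cells of the 2 libraries had 16 barcodes in common, 0.265% of the MEF cells.

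Of the 9 genes, 6 were at least 2-fold lower and 1 at least 2-fold higher over all iMPC cells than in MEF, with a median log2 ratio of -1.04. Among the 8605 genes that reached 10 CPM in at least 1 of the 2 cultures, 21.5% were at least 2-fold lower and 14.8% at least 2-fold higher, with a median of -0.17. Without Ltbp2, which stayed under 10 CPM, the count was 5 lower of 8. Tgfbi and Skil stood at the threshold, with log2 ratios of -1.04 (-1.13 to -0.96) and -1.01 (-1.09 to -0.94). Of 12 other ways of processing, 5 brought Tgfbi and 2 brought Skil inside 2-fold. The median of all gene ratios lay at -0.14 for all iMPC cells and between -0.30 (Ckm-high) and -0.071 (Pax7-positive) for the sets against MEF, over genes of at least 10 CPM on both sides, and smaller differences are not read as a direction.

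**Figure D1:**
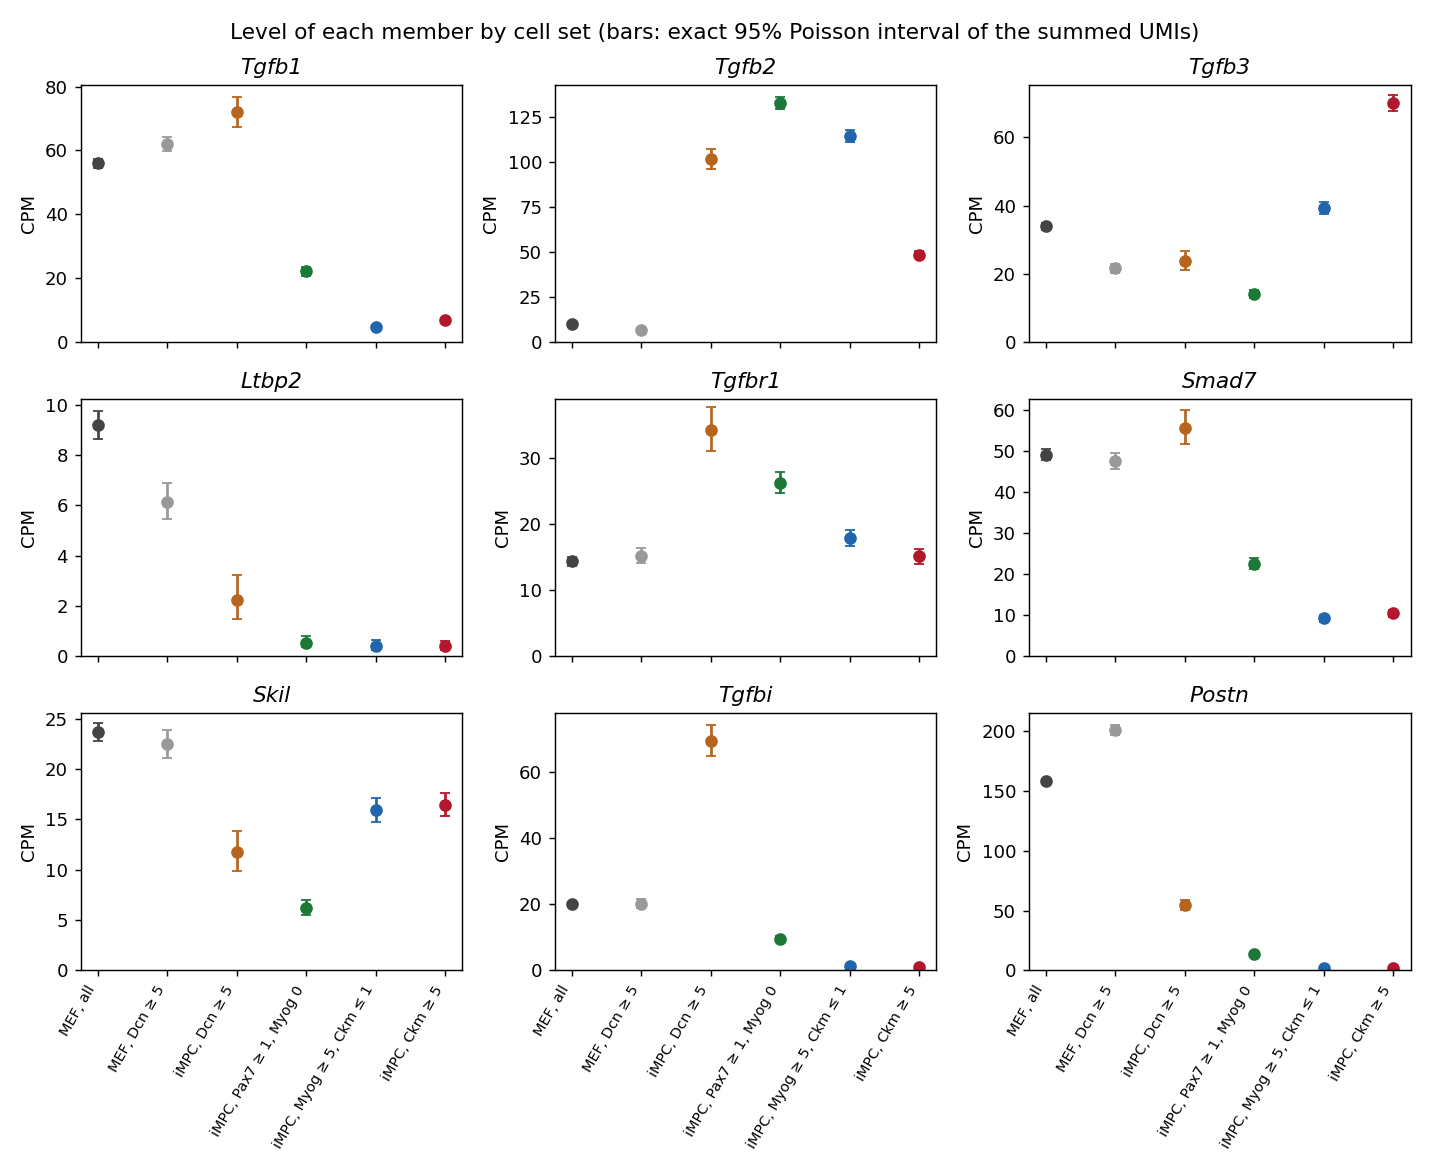
Level of each of the 9 genes in CPM (vertical axis, linear from 0, a scale of its own in each panel) in all MEF cells, MEF cells with at least 5 Dcn UMIs and the 4 iMPC sets. Points are CPM of the summed UMIs and bars are exact 95% Poisson intervals. Tgfb2 is high in all 4 iMPC sets, Postn is highest in the MEF cells with at least 5 Dcn UMIs at 201 CPM, and Tgfbi is highest in the Dcn-high iMPC cells at 69.4 CPM.

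The ligand gene with the most UMIs differed between the cultures and between the iMPC sets. Tgfb1 (ENSMUSG00000002603, chromosome 7, 25687002 to 25705077, GRCm38 as annotated by GENCODE M21) led in MEF at 55.98 CPM (54.6 to 57.3) from 6609 UMIs. In Dcn-high iMPC cells it stood above that, at 71.96 CPM (67.3 to 76.9). In the muscle sets it was lower, at 22.2 CPM (20.8 to 23.6) in Pax7-positive, 4.83 CPM (4.21 to 5.50) in Myog-high and 6.86 CPM (6.15 to 7.64) in Ckm-high cells. No intervals of these 5 sets overlapped. Against MEF, Tgfb1 was 2.52-fold lower in Pax7-positive cells and 11.6-fold lower in Myog-high cells, log2 ratios of -1.34 (-1.43 to -1.24) and -3.54 (-3.73 to -3.34).

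Tgfb2 (ENSMUSG00000039239, chromosome 1, 186622792 to 186705989) went the other way. It stood at 10.3 CPM (9.69 to 10.9) in MEF from 1211 UMIs, and at 133 CPM (129.6 to 136) in Pax7-positive, 115 CPM (111 to 118) in Myog-high, 102 CPM (96.1 to 108) in Dcn-high and 48.4 CPM (46.5 to 50.4) in Ckm-high cells. All 4 iMPC sets were above MEF without overlap, and the Ckm-high set was the lowest of them. Against MEF it was 12.96-fold higher in Pax7-positive cells, a log2 ratio of 3.70 (3.61 to 3.79), and 4.72-fold higher in Ckm-high cells, 2.24 (2.14 to 2.34). Cells in none of the 4 sets held 118 CPM (116 to 121), which is also above MEF. Thinned to 5000 UMIs per cell, 42.5% (40.4% to 44.6%) of Pax7-positive cells had a Tgfb2 UMI against 4.51% (3.99% to 5.08%) of MEF cells. Without thinning the shares were 76.4% and 13.8%. At least 5 Tgfb2 UMIs were found in 1856 iMPC cells and 18 MEF cells.

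Tgfb3 (ENSMUSG00000021253, chromosome 12, 86056745 to 86079041) differed between the stages of the muscle lineage. Its level was 33.9 CPM (32.9 to 34.99) in MEF, 23.8 CPM (21.2 to 26.7) in Dcn-high, 13.97 CPM (12.9 to 15.1) in Pax7-positive, 39.3 CPM (37.5 to 41.1) in Myog-high and 69.98 CPM (67.7 to 72.4) in Ckm-high cells. It was thus lowest in the Pax7-positive and highest in the Ckm-high set, with no overlap among the 5 sets. Myog-high cells were 2.81-fold higher than Pax7-positive cells, a log2 ratio of 1.49 (1.36 to 1.63). Ckm-high cells were a further 1.78-fold higher, 0.83 (0.75 to 0.92), which is inside 2-fold. At 5000 UMIs per cell, 28.5% (25.8% to 31.4%) of Ckm-high and 6.74% (5.73% to 7.88%) of Pax7-positive cells had a Tgfb3 UMI (86.5% and 22.2% unthinned). Over all iMPC cells the log2 ratio to MEF was 0.061. In Ckm-high cells it was 1.04 (0.98 to 1.11), and it came inside 2-fold with stricter set thresholds.

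Summed, the 3 ligand genes stood at 100.2 CPM in MEF and between 125 and 197 CPM in the iMPC sets. Tgfb1 made up 55.9% (54.99% to 56.8%) of these UMIs in MEF and Tgfb2 10.2% (9.70% to 10.8%). In Pax7-positive cells Tgfb2 made up 78.6% (77.7% to 79.6%) and Tgfb1 13.1% (12.4% to 13.9%). Tgfb2 still led in Myog-high cells with 72.2%, while in Ckm-high cells Tgfb3 led with 55.9% (54.6% to 57.1%). Dcn-high iMPC cells held 51.5% Tgfb2 and 36.4% Tgfb1, and MEF cells picked by the same Dcn rule held 7.28% and 68.7%.

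**Figure D2:**
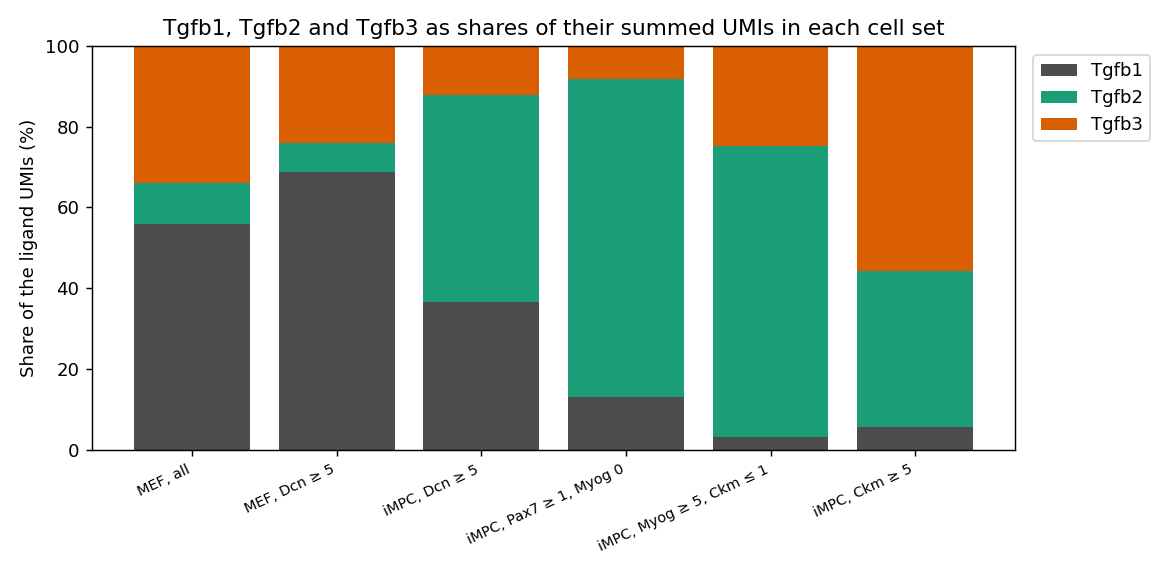
Share of the summed Tgfb1, Tgfb2 and Tgfb3 UMIs (vertical axis, percent) taken by each gene in MEF cells, MEF cells with at least 5 Dcn UMIs and the 4 iMPC sets (horizontal axis). Tgfb1 is the largest part in both MEF bars, Tgfb2 in the Dcn-high, Pax7-positive and Myog-high bars, and Tgfb3 in the Ckm-high bar.

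The start regions of Tgfb1 and Tgfb2 are printed because these ligand genes differed in opposite directions, with that of Postn, the gene with the lowest ratio to MEF over all iMPC cells. Each is the 250 bases before a start site, 5′ to 3′ on the gene's strand, from RefSeq on GRCm38.p6, and capitals mark every match to a searched motif.
Tgfb1 (chr7:25686752-25687001, plus strand): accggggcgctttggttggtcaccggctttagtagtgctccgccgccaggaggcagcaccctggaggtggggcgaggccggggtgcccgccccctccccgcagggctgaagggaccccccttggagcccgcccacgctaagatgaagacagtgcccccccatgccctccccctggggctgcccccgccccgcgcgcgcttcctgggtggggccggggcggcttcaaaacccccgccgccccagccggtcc
Tgfb2 (chr1:186705990-186706239, minus strand): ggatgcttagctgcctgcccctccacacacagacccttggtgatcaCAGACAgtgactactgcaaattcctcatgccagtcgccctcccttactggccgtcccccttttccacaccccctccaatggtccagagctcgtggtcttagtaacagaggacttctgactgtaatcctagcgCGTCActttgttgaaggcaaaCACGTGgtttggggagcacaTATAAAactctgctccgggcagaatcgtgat
Postn (chr3:54360857-54361106, plus strand): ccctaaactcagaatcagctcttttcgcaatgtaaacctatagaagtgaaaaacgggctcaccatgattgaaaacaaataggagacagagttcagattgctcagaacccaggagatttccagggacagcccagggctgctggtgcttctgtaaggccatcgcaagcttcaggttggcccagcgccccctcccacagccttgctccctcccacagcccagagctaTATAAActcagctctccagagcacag
The motifs searched on both strands were the Smad binding element GTCTAGAC and the shorter CAGACA, the cAMP response element TGACGTCA and its part TGACG, the AP-1 site TGANTCA, the E-box CANNTG with its form CAGCTG, and TATAAA. The Tgfb2 window held CAGACA at 204 to 199 bases before the start, TGACG on the opposite strand (printed CGTCA) at 72 to 68, an E-box at 51 to 46 and TATAAA at 31 to 26. The Tgfb1 window, 75.2% G and C, held no match, and the Postn window held TATAAA alone, at 26 to 21 bases. Of 32851 windows of this length, 17.1% held CAGACA, 17.8% TGACG, 66.2% an E-box and 12.4% TATAAA. Of the 9 genes, 6 had an entry in the table, and binding at these windows was not measured here.

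Ltbp2 (ENSMUSG00000002020, chromosome 12, 84783212 to 84876532) encodes a matrix protein of the latent TGF-beta binding family that associates with elastic fibres and, unlike its relatives, is not known to hold the latent ligand. It was the lowest of the 9 genes in MEF, at 9.19 CPM (8.65 to 9.75) from 1085 UMIs, and did not reach 10 CPM in any set. Dcn-high cells held 2.22 CPM (1.46 to 3.23) from 27 UMIs, and the Pax7-positive, Myog-high and Ckm-high sets 0.545, 0.411 and 0.391 CPM from 24, 19 and 19 UMIs. The 3 muscle sets overlapped one another and lay below both others. In Ckm-high cells 15 of the 19 UMIs came from 1 cell, and with doublets removed the log2 ratio to MEF went from -4.56 to -7.07. Of all iMPC UMIs of Ltbp2, 72.98% lay in cells of none of the 4 sets.

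Tgfbr1 (ENSMUSG00000007613, chromosome 4, 47353222 to 47414931), whose product is the target of RepSox, was present in all sets. It stood at 14.4 CPM (13.7 to 15.1) in MEF, 15.1 CPM (14.1 to 16.3) in Ckm-high, 17.9 CPM (16.7 to 19.1) in Myog-high, 26.3 CPM (24.8 to 27.9) in Pax7-positive and 34.3 CPM (31.1 to 37.8) in Dcn-high cells. MEF and Ckm-high cells overlapped, and the other 3 sets lay above both without overlapping each other. The log2 ratio to MEF was 1.25 (1.09 to 1.41) in Dcn-high cells and 0.87 (0.76 to 0.98) in Pax7-positive cells. A UMI was found at 5000 UMIs per cell in 15.01% (12.1% to 18.3%) of Dcn-high and 7.17% (6.52% to 7.87%) of MEF cells (45.9% and 22.5% unthinned).

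The feedback inhibitor Smad7 (ENSMUSG00000025880, chromosome 18, 75367529 to 75395935) blocks the type I receptor and recruits ubiquitin ligases to it. MEF held it at 49.05 CPM (47.8 to 50.3) and Dcn-high iMPC cells at 55.6 CPM (51.5 to 59.96), a log2 ratio of 0.18 (0.064 to 0.30). It was lower in Pax7-positive cells at 22.5 CPM (21.1 to 23.9), in Ckm-high cells at 10.4 CPM (9.51 to 11.3) and in Myog-high cells at 9.18 CPM (8.32 to 10.1). The last 2 overlapped and stood 4.72-fold lower and 5.34-fold lower than MEF. In Pax7-positive cells the log2 ratio was -1.12 (-1.22 to -1.03), and it came inside 2-fold when cells were thinned to 5000 UMIs, when CPM was averaged over cells and when mitochondrial and ribosomal protein genes were left out of the total.

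Skil (ENSMUSG00000027660, chromosome 3, 31095058 to 31122577), which encodes the Smad corepressor SnoN, had a different order. It was highest in MEF at 23.7 CPM (22.8 to 24.6), followed by Ckm-high cells at 16.5 CPM (15.4 to 17.7) and Myog-high cells at 15.9 CPM (14.8 to 17.1), which overlapped. Dcn-high cells held 11.7 CPM (9.90 to 13.8) and Pax7-positive cells 6.22 CPM (5.51 to 7.01). Myog-high cells were thus 2.56-fold higher than Pax7-positive cells, a log2 ratio of 1.35 (1.15 to 1.56), while Smad7 was 2.45-fold lower in the same pair, -1.29 (-1.46 to -1.13).

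The targets showed the widest spread between sets. Postn (ENSMUSG00000027750, chromosome 3, 54361109 to 54391037) encodes periostin, a matricellular protein of fibroblasts and myofibroblasts, and was the most abundant of the 9 genes in MEF at 158 CPM (156 to 160.3) from 18652 UMIs. Dcn-high iMPC cells held 54.5 CPM (50.5 to 58.9), Pax7-positive cells 13.7 CPM (12.6 to 14.8), Ckm-high cells 1.73 CPM (1.38 to 2.14) and Myog-high cells 1.58 CPM (1.24 to 1.99). Every iMPC set was below MEF, and the Ckm-high and Myog-high sets overlapped at the low end. Cells in none of the 4 sets stood at 21.9 CPM (20.95 to 22.9) and held 58.9% of the iMPC Postn UMIs, against 20.8% in Dcn-high cells. Against MEF, Dcn-high cells were 2.90-fold lower, a log2 ratio of -1.53 (-1.65 to -1.42), Pax7-positive cells 11.6-fold lower, -3.53 (-3.65 to -3.42), and Myog-high cells 99.97-fold lower, -6.64 (-7.00 to -6.31). These lowest values moved by over 1.5 times with the processing: thinned cells gave -7.49 in Myog-high cells, and the removal of doublets took Ckm-high cells from -6.52 to -7.76. At 5000 UMIs per cell, 38.1% (36.8% to 39.4%) of MEF and 4.04% (3.25% to 4.95%) of Pax7-positive cells had a Postn UMI (61.1% and 9.68% unthinned). The share in Ckm-high cells was 0.675% (0.272% to 1.39%).

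Tgfbi (ENSMUSG00000035493, chromosome 13, 56609523 to 56639562) encodes another secreted matrix protein, named for its induction by TGF-beta. It stood at 20.01 CPM (19.2 to 20.8) in MEF, 9.56 CPM (8.67 to 10.5) in Pax7-positive, 1.43 CPM (1.10 to 1.82) in Myog-high and 1.15 CPM (0.869 to 1.49) in Ckm-high cells, of which the last 2 overlapped. In Dcn-high iMPC cells it was above MEF, at 69.4 CPM (64.8 to 74.3) from 845 UMIs, 3.47-fold higher, a log2 ratio of 1.79 (1.68 to 1.91). This level was uneven: 64.3% of the UMIs lay in the tenth of Dcn-high cells with most of them, and 1 cell held 53. By cells, 20.4% (17.1% to 24.04%) of Dcn-high and 9.36% (8.62% to 10.1%) of MEF cells had a Tgfbi UMI at 5000 UMIs (39.96% and 22.95% unthinned), against 0.482% (0.157% to 1.12%) of Ckm-high cells. Cells in none of the 4 sets held 45.4% of the iMPC Tgfbi UMIs. The Pax7-positive set, with a log2 ratio to MEF of -1.07 (-1.22 to -0.92), came inside 2-fold under 2 of the 12 other ways of processing. Without the cells that were also Dcn-high, this set stood at 7.16 CPM and its ratio at -1.48, outside that interval. Pax7-positive cells with 0 Dcn UMIs held 5.84 CPM (5.11 to 6.65). The ratio in Myog-high cells went from -3.81 to -4.42 without doublets, and that in Ckm-high cells from -4.12 to -4.95 with stricter thresholds.

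**Figure D3:**
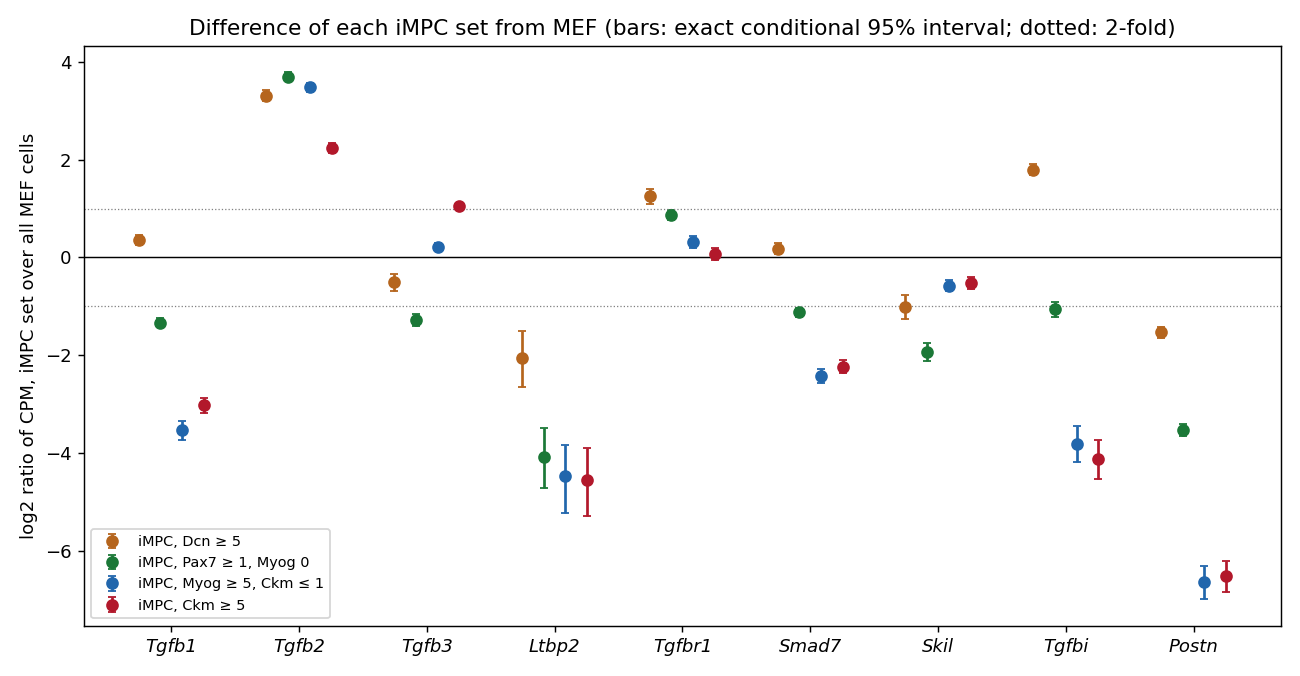
Log2 ratio of CPM of each of the 4 iMPC sets over all MEF cells (vertical axis) for the 9 genes (horizontal axis). Points are the ratios, bars exact conditional 95% intervals, and dotted lines mark 2-fold. Tgfb2 lies above 2-fold in all 4 sets, Postn and Ltbp2 below it in all 4, and Tgfbi above it in Dcn-high cells and below it in the other 3.

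By set, the 9 genes counted as follows. The 4 comparisons share the MEF cells. In Pax7-positive cells 7 were at least 2-fold lower than MEF and 1 higher (all genes 19.4% and 14.8%). In Myog-high cells 5 were lower and 1 higher (all genes 26.9% and 15.9%), and in Ckm-high cells 5 were lower and 2 higher (all genes 35.2% and 13.9%). In Dcn-high cells 3 were lower and 3 higher (all genes 12.9% and 13%), Skil among the lower at the threshold, from which 4 other ways of processing removed it. The median log2 ratios of the 9 were -1.28, -2.42, -2.24 and 0.18, beside -0.090, -0.21, -0.54 and -0.10 over all genes. Ltbp2, under 10 CPM everywhere, is 1 of the lower genes in each of these sets. Over the other 8 genes the median was -1.50 in the Myog-high and -1.38 in the Ckm-high set.

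MEF cells picked by the same rule as the Dcn-high iMPC cells gave a pair of sets cut alike but not matched in Dcn. The rule took 36.1% of MEF and 5.9% of iMPC cells, with Dcn at 566 CPM and 1162 CPM. The MEF cells numbered 2179 at a median of 20634 UMIs. In this pair 2 of the 9 genes were at least 2-fold lower in iMPC and 3 higher, where 13.4% and 13.3% of all genes were. The higher ones were Tgfb2, 15.5-fold higher with a log2 ratio of 3.95 (3.77 to 4.14), Tgfbi with 1.78 (1.64 to 1.91) and Tgfbr1 with 1.18. The lower ones were Postn, with -1.88 (-1.99 to -1.76), and Ltbp2, with -1.47 (-2.10 to -0.90). Ltbp2 was under 10 CPM in both sets, so it is outside the genes behind these shares. Tgfb1, Smad7 and Tgfb3 differed by 0.22, 0.23 and 0.14, and Skil by -0.94. Tgfbr1 came inside 2-fold with thinned cells and with stricter set thresholds, and Ltbp2 with cells of a single set.

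Within iMPC, Dcn-high against Pax7-positive cells (443 and 2070 cells once the 110 cells of both were left out) gave 6 of the 9 genes at least 2-fold higher and 0 lower, where 12.3% and 7.47% of all genes were. Skil, at 1.03, came inside 2-fold under 3 other ways of processing, and Ltbp2, at 2.25 from 27 and 24 UMIs in the full sets, with stricter thresholds. Ltbp2 was under 10 CPM in both sets, and of the other 8 genes 5 were higher. Tgfbi was 10.2-fold higher with a log2 ratio of 3.35 (3.15 to 3.55), Postn 4.74-fold higher and Tgfb1 3.70-fold higher, whereas Tgfb2 differed by -0.39 (-0.49 to -0.29). Myog-high against Pax7-positive cells gave 4 lower (Postn, Tgfbi, Tgfb1 and Smad7) and 2 higher (Tgfb3 and Skil), where 11.5% and 7.02% of all genes were. Tgfbi and Ltbp2 were under 10 CPM in both of these sets, and of the other 7 genes 3 were lower and 2 higher. Ckm-high against Myog-high cells gave 1 lower, Tgfb2 at -1.24 (-1.31 to -1.17), and 0 higher (all genes 13.8% and 6.53%). With doublets removed 3 genes were lower, since Postn went from 0.13 to -1.10 and Ltbp2 from -0.075 to -1.95. With stricter thresholds 3 were lower too, Tgfbi at -1.02 and Ltbp2 at -1.38 being added. Of the 9 genes, 5 reached 10 CPM in this pair, and none of the added ones did. In Ckm-high and Myog-high cells Postn stood at 1.73 and 1.58 CPM and Tgfbi at 1.15 and 1.43 CPM. Ltbp2 stood at 0.391 and 0.411 CPM, from 19 UMIs each.

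**Figure D4:**
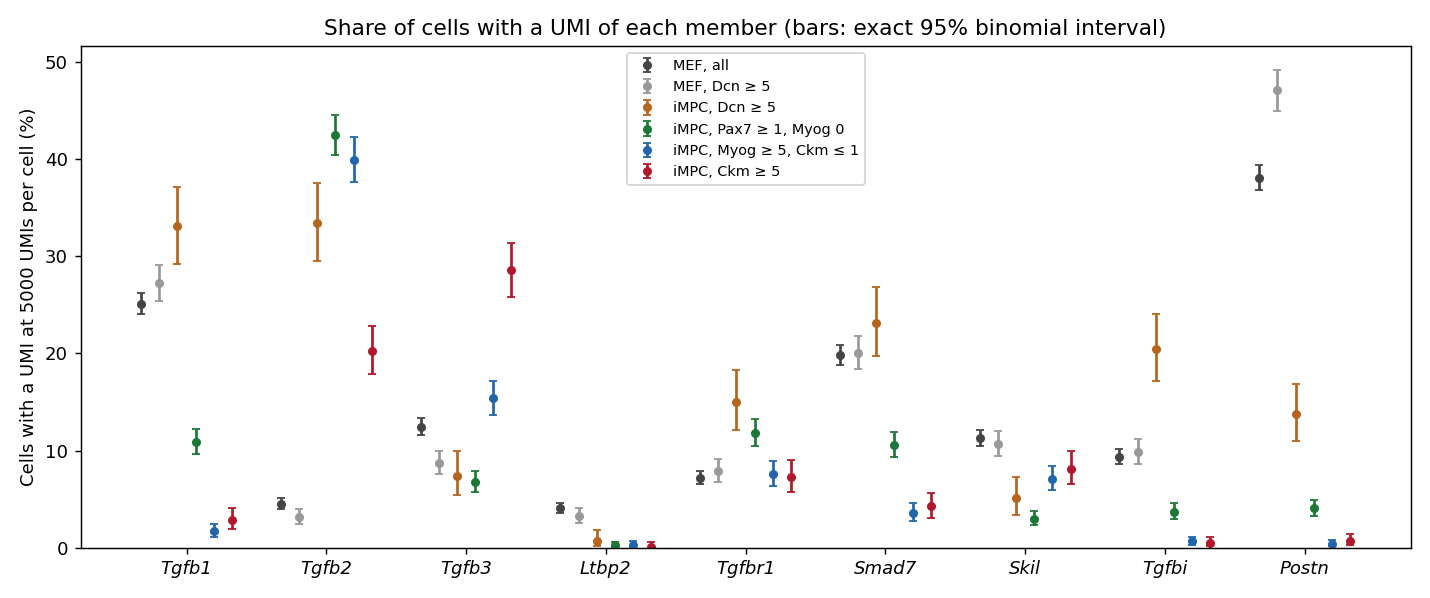
Percentage of cells in which each of the 9 genes was detected (vertical axis, after thinning to 5000 UMIs per cell) in 2 MEF and 4 iMPC sets, with exact 95% binomial intervals as bars. Tgfb2 is found in 42.5% of Pax7-positive and 4.51% of MEF cells, and Postn in 38.1% of MEF and 4.04% of Pax7-positive cells.

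Within the Pax7-positive set some members differed between cells with and without a sign of proliferation. Cells with a UMI of Mki67, a gene of proliferating cells, numbered 1127 at a median of 22221 UMIs, and those without 1053 at 15673. Tgfb1 stood at 15.9 CPM (14.4 to 17.5) with Mki67 and 31.7 CPM (29.1 to 34.5) without. Smad7 stood at 16.8 CPM (15.3 to 18.5) and 31.2 CPM (28.6 to 33.9), and Tgfbi at 5.60 CPM (4.73 to 6.57) and 15.6 CPM (13.8 to 17.6). Tgfbr1 and Skil overlapped between the 2 parts, and Tgfb2 was 127 CPM (123 to 131) and 142 CPM (137 to 148). Restricted to Pax7-positive cells with 0 Dcn UMIs, Tgfb1 was 13.1 CPM (11.7 to 14.6) and 25.3 CPM (22.8 to 28.1), and Tgfbi 3.86 CPM (3.12 to 4.71) and 9.29 CPM (7.77 to 11.01). In MEF, where 602 cells had a Mki67 UMI, Tgfb1 stood at 47.5 CPM (44.03 to 51.2) and 57.1 CPM (55.7 to 58.6) with and without it. Smad7 there had the opposite order, at 54.4 CPM (50.7 to 58.4) and 48.3 CPM (46.98 to 49.7), and Tgfbi overlapped, at 18.2 CPM (16.02 to 20.5) and 20.3 CPM (19.4 to 21.2). Dcn-high iMPC cells, 98 with and 455 without a Mki67 UMI, had the order of the Pax7-positive set for Tgfb1, Smad7 and Tgfbi. Tgfb1 stood at 60.7 CPM (52.5 to 69.9) with it and 75.97 CPM (70.4 to 81.9) without. Smad7 stood at 41.6 CPM (34.8 to 49.3) and 60.6 CPM (55.6 to 65.9), and Tgfbi at 50.1 CPM (42.6 to 58.4) and 76.3 CPM (70.7 to 82.2). Postn had the opposite order there, at 69.5 CPM (60.6 to 79.2) and 49.2 CPM (44.8 to 54.05). These parts were chosen after the values of the sets had been seen.

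Across 5759 MEF cells at 5000 UMIs, members were weakly related to one another. The largest Pearson correlation between 2 members, on log2(1 + UMIs), was 0.096 for Tgfb2 and Tgfb3, too weak in counts this sparse to be read as a finding. Postn went with Col1a1, the main fibroblast collagen, at 0.29 in MEF and 0.41 over the 553 Dcn-high iMPC cells. Tgfb3 correlated at 0.11 with Acta2, smooth muscle actin, and Tgfbi at -0.13 in MEF, similarly weak values that are not read as findings either. Cells of a library share its preparation and depth, and these values are descriptions without a test.

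Genes with the most similar pattern over MEF and the 4 iMPC sets were found by the smallest root mean square difference of mean-centred log2(CPM + 1), among 9259 genes. For Tgfb2 these were Tbx2 (0.20), Gm38285 (0.25) and mt-Nd6 (0.26), for Tgfb3 Dusp3 (0.076), Npepl1 (0.083) and Prepl (0.11) and for Tgfb1 Ifi204 (0.16), Mlkl (0.20) and Rac3 (0.22). For Tgfbi they were Ebf1 (0.18), Fxyd5 (0.19) and Mmp2 (0.22), for Postn Loxl3 (0.26), Man1a (0.30) and Gxylt2 (0.32), for Smad7 App (0.090), Ece1 (0.10) and Pon2 (0.11), for Skil 4833439L19Rik (0.13), Tulp4 (0.14) and Slc35b1 (0.15) and for Tgfbr1 Pcnx (0.083), Camk2n2 (0.088) and Pisd (0.11). Many genes lie close by this measure over 5 sets. Over MEF cells, the highest correlations were with Ptn (0.34), Col1a2 (0.29) and Col1a1 (0.29) for Postn, Myh11 (0.22), Cnn1 (0.17) and Ccn2 (0.17) for Tgfb3 and Mgp (0.21), Mmp2 (0.21) and Col3a1 (0.16) for Tgfbi. For the other 6 members the highest correlation was 0.13, of Tgfb1 with Itm2b.

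The other genes of the pathway gave the surroundings of the 9. Among 10 genes of ligand latency and activation, 9 reached 10 CPM in MEF or over all iMPC cells, of which 6 were at least 2-fold lower and 1 higher in iMPC (median log2 ratio -2.42). The shares of all genes in this comparison were 21.5% lower and 14.8% higher, which also stand beside the next 4 lists. Thbs1, thrombospondin, an activator of latent TGF-beta, had 1883 CPM in MEF but 14.2 CPM over all iMPC cells, -7.05 on the log2 scale. The integrin subunit gene Itgb5 stood at -3.30. Itgb6, whose integrin releases active ligand, had 4352 UMIs in iMPC and 1 in MEF, a log2 ratio of 11.11 (8.63 to 16.41), and reached 46.04 CPM in Ckm-high cells.

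All 3 receptor genes that reached 10 CPM were at least 2-fold lower over all iMPC cells. Tgfbr2, the type II receptor, stood at 59.6 CPM in MEF, 45.3 CPM in Pax7-positive, 42.8 CPM in Dcn-high, 17.7 CPM in Myog-high and 6.82 CPM in Ckm-high cells, an order unlike that of Tgfbr1. Tgfbr3, the coreceptor betaglycan, which presents Tgfb2 in particular, stood at 48.4 CPM in MEF, 33.7 CPM in Dcn-high and 0.966 CPM in Ckm-high cells, and Acvrl1 at -2.97 on the log2 scale over all iMPC cells. The signal transducers Smad2, Smad3 and Smad4 differed by -0.38, -0.57 and -0.40 over all iMPC cells, all inside 2-fold. They were also inside it in the Pax7-positive, Myog-high and Dcn-high sets. In Ckm-high cells 2 of the 3 were at least 2-fold lower than MEF (median -1.13), where 35.2% of all genes were (median -0.54).

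Of 10 further negative regulators, 9 reached 10 CPM and 5 were at least 2-fold lower over all iMPC cells (median -1.33). Pmepa1, a TGF-beta target that sequesters receptor-activated Smads, was at 377 CPM in MEF and between 20.2 and 39.9 CPM in the 4 iMPC sets, 10.98-fold lower overall. In Dcn-high cells it was as low, at 38.3 CPM, -3.30 (-3.44 to -3.17) against MEF. Ldlrad4 was -4.06, Bambi, a pseudoreceptor, -2.18 and the corepressor Ski -2.01 on the log2 scale over all iMPC cells. Smad6, an inhibitor mainly of BMP signals, went the other way in Dcn-high cells, at 14.9 CPM against 1.74 CPM in MEF.

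Among 31 other targets, 26 reached 10 CPM, of which 16 were at least 2-fold lower and 3 higher over all iMPC cells (median -1.92). Smooth muscle and myofibroblast genes were among the lowest: Tagln was 36.8-fold lower, Cnn1 59.4-fold lower and Acta2 9.99-fold lower. Lrrc15, a marker of TGF-beta-driven fibroblasts, had 116 UMIs in iMPC against 12205 in MEF, -7.70 on the log2 scale. Ccn2 stood at -3.63 and Col1a1 at -4.86.

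Dcn-high iMPC cells split this target list. Of 28 genes at 10 CPM, 10 were at least 2-fold lower and 9 higher than MEF, where 12.9% and 13% of all genes were, with a median of -0.024 beside -0.10 over all genes. Acta2, Tagln and Ccn2 stayed low at -3.59, -4.47 and -2.95. Igfbp3, Il11 and Sphk1, named after their values had been seen, were the furthest above MEF of the list, at 854, 30.1 and 20.3 CPM against 32.2, 1.89 and 2.19 CPM. In Ckm-high cells 19 of 27 were lower and 4 higher (median -3.05), where 35.2% and 13.9% of all genes were (median -0.54).

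**Figure D5:**
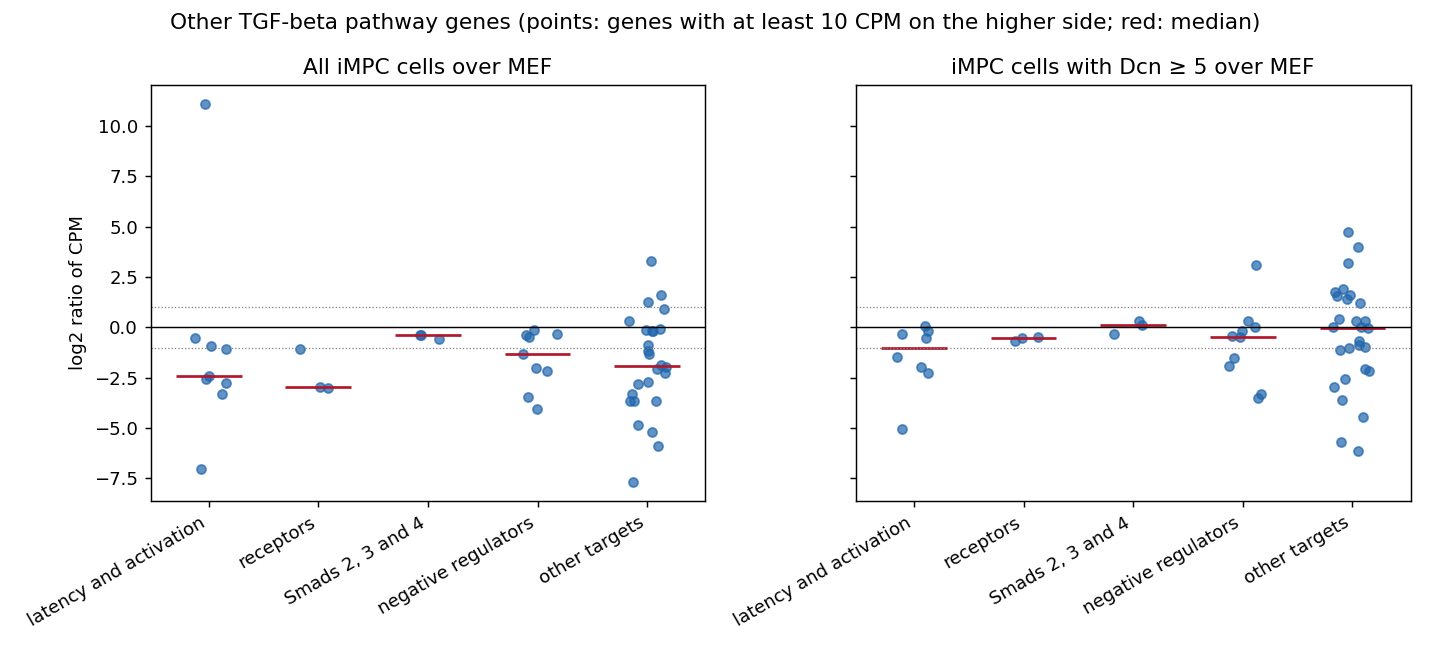
Log2 ratio of CPM over MEF (vertical axis) for the genes of 5 TGF-beta pathway lists, in all iMPC cells (left) and in Dcn-high iMPC cells (right). Points are genes that reached 10 CPM in either group, spread sideways at random, red lines are list medians and dotted lines mark 2-fold. The median of the other targets is -1.92 on the left and -0.024 on the right.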

How the data were processed

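Each matrix of raw UMI counts per gene and barcode was deposited without normalization and was made with Cell Ranger 4.0, per the file headers and the submitters' processing notes, which also name GRCm38.p6 and Seurat 3.2.3. The labels give MEF the iMPC treatment protocol too, and its own treatment label was used. The iMPC matrix lists 6794880 barcodes with 282903287 UMIs and the MEF matrix 6113 with 118541302. How the MEF barcodes were selected is not given in the sources used here. Genes in both matrices were used (26100), and 0.209% of MEF UMIs, from mitochondrial rRNA and tRNA genes, fell outside them. Doublets were kept and removed with Scrublet as an alternative (337 iMPC cells, and in MEF, where its threshold marked 1 cell, the 302 highest scores). Intervals are exact Poisson for CPM, exact conditional for ratios and Clopper-Pearson for shares, at 95%. PCR and capture are not covered by them. Shares were taken after thinning each cell to 5000 UMIs, which left out 284 MEF and 0 iMPC cells. A count of 0 was set to 3 counts. Genes that reached 10 CPM in either set of a comparison formed the background. The ratio and the thinning were tested on simulated data. Python 3.11.15, numpy 2.4.6, scipy 1.17.1, pandas 2.3.3 and scanpy 1.11.5 were used.

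The members, the pathway and marker lists and the cell sets were chosen with earlier results of these data known. All 9 members are named. Of each pathway list the 3 genes with the largest ratio between all iMPC cells and MEF were named, with 13 fixed genes, of which 1 is not reported here. Likeness was ranked over sets and over MEF cells.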

Additional observations from a re-analysis of the deposited data

Results flagged for a closer look

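Tgfbi and Tgfb3 stood on opposite sides of MEF in different iMPC sets, each by at least 2-fold. For Tgfbi the log2 ratio to MEF was 1.79 in Dcn-high and -4.12 in Ckm-high cells, 5.91 apart. For Tgfb3 it was 1.04 in Ckm-high and -1.28 in Pax7-positive cells, 2.32 apart. With 1 library per group the differences were not tested.

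All 9 genes were also found in 48846 iMPC barcodes of 200 to 600 UMIs, which lay under the iMPC minimum and entered no comparison. MEF cells were kept with no minimum, down to 160 UMIs, so size alone does not show that these iMPC barcodes hold no cell. A count of 0 would allow 0.141 CPM in the iMPC barcodes of this size. Tgfb3 stood at 44.9 CPM, Tgfb2 at 36.7 CPM, Tgfbr1 at 10.7 CPM, Tgfb1 at 10.6 CPM and Skil at 8.52 CPM. Postn stood at 6.07 CPM, Smad7 at 5.93 CPM, Tgfbi at 3.48 CPM and Ltbp2 at 0.706 CPM. If such RNA made up 2.06% of a cell's UMIs, the ratio of the median depths, it would give a Tgfb2 UMI in 0.377% and a Postn UMI in 0.0626% of cells at 5000 UMIs. The lowest shares seen in an iMPC set were 20.3% for Tgfb2 (Ckm-high) and 0.406% for Postn (Myog-high). The 2.06% was assumed, and the part of such RNA in the levels of the cells was not tested.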

How the results depend on the processing

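No paired analysis was possible because each group held 1 library. No member that was at least 2-fold from its comparison set changed direction under any of the 12 alternatives to its ratio, and 24 of 624 such values came inside 2-fold. Of the alternative ratios of single members, 786 stayed within the main interval and 186 did not. Intervals are narrow at this depth, so small shifts count. Of the counts past 2-fold, 228 stayed within 1.5 times and 6 did not. A UMI minimum for MEF cells as for iMPC and the removal of barcodes found in both libraries were alternatives added once the data had been seen. The cause of each move was not tested. Scaling by the median of gene ratios shifted all ratios by 0.018 to 0.30, and gave member medians of -0.90 for all iMPC cells, -1.94 for Ckm-high cells and 0.35 for the Dcn-high pair. Leaving mitochondrial and ribosomal protein genes out of the total gave -0.89, -1.09 (Pax7-positive) and -2.24 (Myog-high), with 2 genes higher in Pax7-positive cells, Tgfbr1 being added. CPM averaged over cells gave -1.17 over all iMPC cells and 0.36 in Dcn-high cells, and thinned cells -1.17 and, in Ckm-high cells, -2.43. Without doublets the medians were -2.57 (Myog-high), 0.32 (Dcn-high against MEF) and 0.36 (the Dcn-high pair), and 3 genes were lower in Ckm-high than in Myog-high cells, Postn (from 0.13 to -1.10) and Ltbp2 being added. Postn and Ltbp2 were under 10 CPM in both the Ckm-high and the Myog-high set. With cells of 1 set they were -1.48 (Pax7-positive), 0.33 and 0.38 (Dcn-high against MEF and the pair), with 1 gene lower in that pair. Stricter thresholds gave -2.43 (Ckm-high) and 0.080 (the pair), 1 gene higher in Ckm-high cells than in MEF and 3 lower than in Myog-high cells. With members of at least 10 CPM the medians were -1.50 (Myog-high) and -1.38 (Ckm-high), and 1 gene was lower in the Dcn-high pair. Shares of cells followed depth by construction, and 208 moved without thinning, at 2000 UMIs or at 2 UMIs. Ltbp2, with 19 to 27 UMIs in the 4 sets, is the member that depth limits most.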

Other observations

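Genes of the related BMP and activin arms, whose type I receptors other than ALK5 signal through their own Smads or share Smad2 and Smad3, were listed beside the TGF-beta genes. Of 18 BMP genes, 11 reached 10 CPM between all iMPC cells and MEF, of which 1 was at least 2-fold lower and 2 higher (median log2 ratio -0.25). Over all genes 21.5% were lower and 14.8% higher, so the share of higher BMP genes was near that of all genes. The higher ones were Nog, a BMP antagonist, at 21.4 CPM against 0.601 CPM, and Id2, a target of BMP signals, at 173 CPM against 36.9 CPM. Id2 was highest in Pax7-positive cells at 249 CPM (245 to 254) and lowest of the iMPC sets in Ckm-high cells at 30.2 CPM (28.6 to 31.7). Grem1, another BMP antagonist, was highest in Dcn-high cells at 161 CPM (153 to 168), above 68.7 CPM (67.2 to 70.2) in MEF.

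Of 9 activin and myostatin genes, 8 reached 10 CPM, 2 of them at least 2-fold lower and 2 higher over all iMPC cells (median -0.48), beside the same shares of all genes. Mstn, which encodes myostatin, an inhibitor of muscle growth, had 8638 UMIs in iMPC and 1 in MEF, and stood at 2.79 CPM (2.32 to 3.33) in Pax7-positive, 39.7 CPM (37.9 to 41.6) in Myog-high and 103 CPM (100.4 to 106) in Ckm-high cells. Its antagonist Fst, follistatin, was lower in iMPC at 14.3 CPM against 84.2 CPM, -2.56 (-2.62 to -2.50). Gdf15, a secreted stress-response ligand of the wider TGF-beta family, was 32.5-fold higher over all iMPC cells, and its level in the 4 sets lay between 23.00 and 41.9 CPM.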
